A study of Mus musculus with 18 samples.

Results

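The Fos and Jun family encodes the subunits of AP-1, and its 7 genes Fos, Fosb, Fosl1, Fosl2, Jun, Junb and Jund were read by gene symbol from the 24015 rows of each of the authors' 3 deposited comparison tables. All 7 symbols were found in every table. The RNA came from microdissected dentate gyrus of C57BL/6 mice aged 8 weeks, with 1 library per mouse. The 18 libraries fall into 6 groups of 3, namely shRNA-cFos_E1 and shRNA-cFos_E0, which carry a short hairpin RNA named for cFos, shRNA-Ctrl_E1 and shRNA-Ctrl_E0, which carry a control hairpin, and cFos_OE and EYFP_OE, in which cFos or the yellow fluorescent protein EYFP was overexpressed. E0 is called sham in the names of the comparisons, and the title of the series speaks of neuronal activity. No source used here gives the nature and timing of E1, the promoter of each construct or the cells it reached. The tables hold means over libraries and no value per library, so each log2 fold change below stands with the authors' standard error over 3 against 3 libraries, and depth per library is unknown.

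AP-1 is a dimer of basic leucine zipper proteins. Jun proteins can pair with each other or with Fos proteins, whereas Fos proteins do not form stable dimers among themselves and depend on a Jun or related partner to bind DNA. Fos, Fosb and Junb are classic immediate early genes, transcribed in neurons within minutes of strong activity through calcium and MAP kinase signalling. c-Fos RNA and protein are short-lived, while a truncated product of Fosb, ΔFosB, is known for persisting in neurons after repeated stimulation.

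Promoter sequence is shown for the 3 members whose window holds the CRE core, TGACG, the short form of the site bound by CREB, and for Jun, whose window holds the sites known as jun1 (TGACATCA) and jun2 (TTACCTCA), bound by Jun and ATF proteins. Each runs 5′ to 3′ on the gene's own strand, from 250 bases before the RefSeq start to 50 bases after it in GRCm38.p6, with these motifs in capitals. The Fos window is chr12:85473640-85473939 on the plus strand, and the Fosb window chr7:19309996-19310295, the Junb window chr8:84978699-84978998 and the Jun window chr4:95052173-95052472 are on the minus strand.
Fos: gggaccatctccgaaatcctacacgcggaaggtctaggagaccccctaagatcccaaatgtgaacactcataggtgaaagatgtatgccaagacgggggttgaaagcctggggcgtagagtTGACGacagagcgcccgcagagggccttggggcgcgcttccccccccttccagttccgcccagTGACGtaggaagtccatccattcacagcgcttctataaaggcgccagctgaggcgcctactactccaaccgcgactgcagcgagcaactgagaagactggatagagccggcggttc
Fosb: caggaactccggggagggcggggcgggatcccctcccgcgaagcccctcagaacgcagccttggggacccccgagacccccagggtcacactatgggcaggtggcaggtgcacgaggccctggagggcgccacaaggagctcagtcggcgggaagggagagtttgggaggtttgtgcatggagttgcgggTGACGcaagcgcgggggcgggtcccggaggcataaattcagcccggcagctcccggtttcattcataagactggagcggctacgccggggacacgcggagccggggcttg
Junb: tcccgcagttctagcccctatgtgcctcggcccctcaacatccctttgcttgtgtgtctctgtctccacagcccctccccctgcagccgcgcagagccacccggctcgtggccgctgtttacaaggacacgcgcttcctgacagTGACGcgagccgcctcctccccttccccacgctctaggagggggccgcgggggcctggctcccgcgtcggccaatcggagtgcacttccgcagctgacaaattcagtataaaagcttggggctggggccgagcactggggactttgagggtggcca
Jun: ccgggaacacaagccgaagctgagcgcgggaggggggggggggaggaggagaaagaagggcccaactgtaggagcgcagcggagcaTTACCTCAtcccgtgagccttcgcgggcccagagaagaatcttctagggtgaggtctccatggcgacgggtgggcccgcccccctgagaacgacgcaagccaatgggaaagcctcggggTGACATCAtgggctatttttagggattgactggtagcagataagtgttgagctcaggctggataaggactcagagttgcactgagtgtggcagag

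The CRE core begins 129 and 66 bases before the start of Fos, 60 bases before that of Fosb and 106 bases before that of Junb. It was found in 3 of the 6 member promoters in the RefSeq table, which has Fos, Fosb, Fosl2, Jun, Junb and Jund, and in 20.8% of all 32851 promoters when both strands were searched. The jun1 site begins 45 bases and the jun2 site 164 bases before the start of Jun, and these motifs, added after the data had been seen, occur in 3.62% and 0.889% of all promoters. None of the 6 windows holds the full CRE (TGACGTCA, 1.79% of all promoters, which contains the CRE core), the AP-1 site (TGACTCA, 5.20%) or a CArG box, the element bound by Srf (1.63%). The RefSeq start lies within 30 bases of the start of the gene in GENCODE M21 for Fos, Fosb, Jun and Junb, but 671 bases inside the gene for Fosl2 and 1210 bases before it for Jund, so the windows of Fosl2 and Jund may not hold the promoter in use. These are matches of letters in a 300-base window and no measure of binding. Sequence further upstream was not searched. The search therefore cannot show whether Fos or another member has a CArG box, or any other of these motifs, outside its window.

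Fos, the gene targeted by the hairpin and by overexpression, was read first. With shRNA-cFos, in the authors' deposited table, Fos RNA was higher at E1 than at E0 by 2.33 ± 0.15 on the log2 scale (SE, 5.05-fold, adjusted p = 2.24e-54). With shRNA-Ctrl, the deposited table gives 3.36 ± 0.14 (10.3-fold, adjusted p = 4.93e-127). Group levels computed from the authors' deposited tables, as normalized counts with the shrinkage of the fold change removed, were 999 in shRNA-cFos_E1 against 170 in shRNA-cFos_E0, and 2126 in shRNA-Ctrl_E1 against 178 in shRNA-Ctrl_E0. So the Fos RNA of the shRNA-cFos libraries was below that of the shRNA-Ctrl libraries at E1 and close to it at E0. The hairpin tables were normalized separately, and the median gene with shRNA-cFos stood 0.43 lower on the log2 scale at E0 (12406 genes); relative to that shift, the log2 ratio of Fos, shRNA-cFos over shRNA-Ctrl, was -0.66 at E1 and 0.37 at E0. These ratios between tables carry no error and no test.

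With overexpression, the authors' deposited table gives Fos a log2 fold change of 3.34 ± 0.20 in cFos_OE over EYFP_OE (SE, adjusted p = 2e-57, rank 5 from the highest of 15827 genes tested). The direction of this table was taken from Fos itself, so the rise of Fos is no check of it. The deposited value is shrunken toward 0, and removing the shrinkage has more than a single solution. In the solution with less shrinkage, used here, the deposited value keeps 55.5% of the unshrunken one, computed as 6.02. The EYFP_OE level is then 835 normalized counts with the shrinkage removed and 4934 with it kept, and the cFos_OE level 54056 and 49956. The other solution would give a larger unshrunken value and a lower EYFP_OE level, so both are uncertain. Reads of the construct and of the mouse's own Fos cannot be told apart in these counts.

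Among the Fos-class members, Fosb had the highest log2 fold change of all tested genes at E1 with either hairpin. Fosb RNA was 34.0-fold higher in shRNA-cFos_E1 than in shRNA-cFos_E0 in the authors' deposited table (log2 5.09 ± 0.11, SE; highest of 14388 genes tested, adjusted p listed as 0). With shRNA-Ctrl the deposited table gives a 56.8-fold rise (log2 5.83 ± 0.12; highest of 15675, adjusted p listed as 0). A listed 0 is an adjusted p too small for the format of the table. The computed Fosb level was 5889 normalized counts in shRNA-cFos_E1 against 147 in shRNA-cFos_E0, and 11013 in shRNA-Ctrl_E1 against 161 in shRNA-Ctrl_E0. Fosb has 6 coding transcripts in GENCODE M21, and the counts per gene do not separate the RNA of full-length FosB from that of ΔFosB.

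Fosl2, which encodes Fra-2, rose 7.01-fold at E1 with shRNA-cFos in the authors' deposited table (log2 2.81 ± 0.07, SE; 16th highest, adjusted p listed as 0) and 12.1-fold with shRNA-Ctrl (3.60 ± 0.09; 11th highest, adjusted p listed as 0). Its computed level was 9571 normalized counts in shRNA-cFos_E1 against 1311 in shRNA-cFos_E0, and 14321 in shRNA-Ctrl_E1 against 1111 in shRNA-Ctrl_E0. Fosl1, which encodes Fra-1, was barely detected: its mean normalized count over the 6 libraries was 3.01 with shRNA-cFos, where the authors' deposited table gives no adjusted p (log2 0.14 ± 0.20), and 6.05 with shRNA-Ctrl (0.65 ± 0.29, adjusted p = 0.0677, not called). The 95% interval with shRNA-Ctrl was 0.08 to 1.21.

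Of the Jun class, Junb responded most. The authors' deposited tables give Junb, whose product is a weaker activator than c-Jun at many promoters, a 5.18-fold higher level at E1 with shRNA-cFos (log2 2.37 ± 0.12, SE, adjusted p = 1.199e-86) and a 5.57-fold higher level with shRNA-Ctrl (2.48 ± 0.12, adjusted p = 9.77e-100). Jun, which encodes c-Jun, the classic target of the JNK kinases, was 2.26-fold higher at E1 with shRNA-cFos in the deposited table (1.18 ± 0.08, adjusted p = 1.62e-51) and 2.63-fold with shRNA-Ctrl (1.40 ± 0.06, adjusted p = 7.69e-108). Jund, the member usually described as constitutively expressed, was 2.01-fold higher with shRNA-cFos (1.01 ± 0.08, adjusted p = 1.22e-35) and 2.29-fold with shRNA-Ctrl (1.20 ± 0.08, adjusted p = 2.05e-46), also from the deposited tables. Computed Junb levels were 5332 normalized counts in shRNA-cFos_E1 against 938 in shRNA-cFos_E0, and 7836 in shRNA-Ctrl_E1 against 1309 in shRNA-Ctrl_E0.

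At E1, then, 6 of 6 tested members rose with shRNA-cFos and 6 of 7 with shRNA-Ctrl at an adjusted p under 0.05; every member had a positive log2 fold change at E1, so none was lower at an unadjusted p either. Over all genes tested in the authors' deposited tables, 16.3% were called higher and 11.7% lower with shRNA-cFos, and 16.8% higher and 16.2% lower with shRNA-Ctrl. The median log2 fold change of the tested members was 2.35 with shRNA-cFos and 2.48 with shRNA-Ctrl, where the medians over all genes were 0.00 and 0.01. Fosb came first in the order of log2 fold changes with both hairpins, and Jun and Jund came last among the called members, with overlapping 95% intervals (1.03 to 1.33 for Jun and 0.85 to 1.16 for Jund with shRNA-cFos; 1.28 to 1.52 and 1.04 to 1.36 with shRNA-Ctrl). Between them came Fosl2, Junb and Fos with shRNA-cFos, where the intervals of Junb (2.14 to 2.61) and Fos (2.05 to 2.62) overlapped. With shRNA-Ctrl the order was Fosl2, Fos and Junb, and the intervals of Fosl2 (3.43 to 3.78) and Fos (3.09 to 3.63) overlapped. In these bulk libraries fewer cells of a type and less RNA per cell cannot be told apart.

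**Figure D1:**
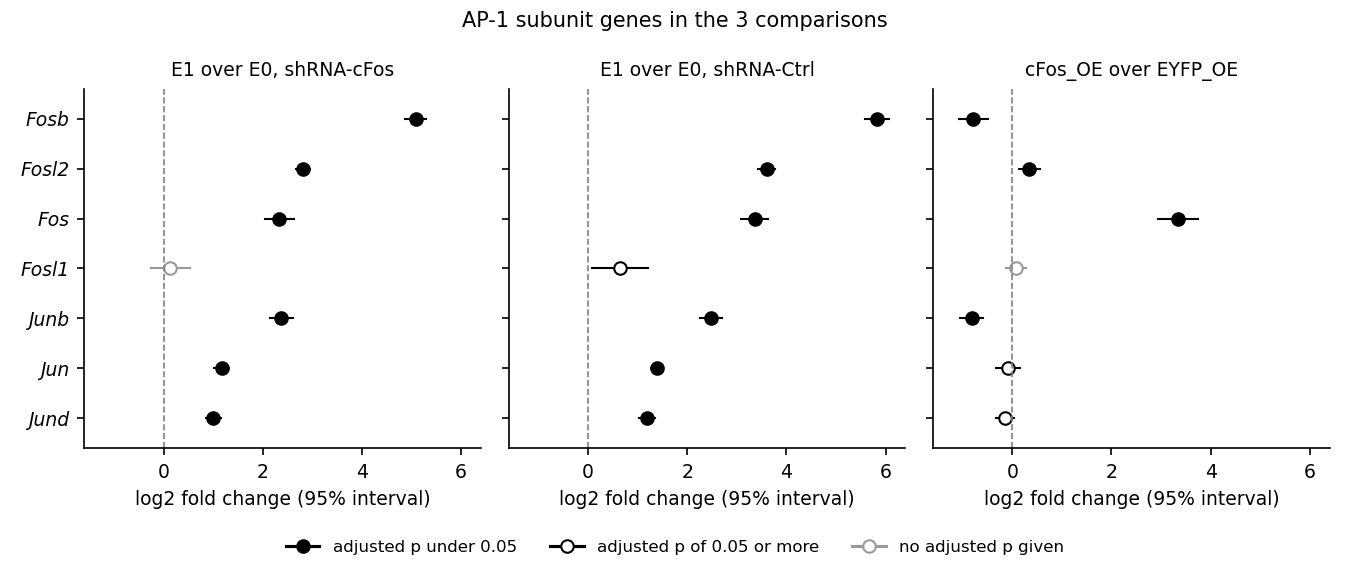
Log2 fold change of each AP-1 subunit gene (points) with its 95% interval (lines) in the authors' deposited tables, for E1 over E0 with shRNA-cFos, E1 over E0 with shRNA-Ctrl, and cFos_OE over EYFP_OE, from 3 libraries per group. Filled points passed an adjusted p of 0.05: Fosb is farthest right with both hairpins (5.09 and 5.83) and lies left of 0 with overexpression (-0.79), as Junb does (-0.82).

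To compare levels between members, the computed normalized counts were divided by the length of the longest coding transcript in GENCODE M21. Per kilobase, Jund had the highest level of the 7 in each hairpin group, at 3362 in shRNA-cFos_E1 against 1646 in shRNA-cFos_E0 and at 5588 in shRNA-Ctrl_E1 against 2395 in shRNA-Ctrl_E0. Jun per kilobase stood at 2533 against 1101 with shRNA-cFos and 4374 against 1642 with shRNA-Ctrl, each time E1 against E0. Fosb moved most in this order, standing at rank 4 of 7 at E1 and rank 6 at E0 with either hairpin: its level per kilobase was 1557 in shRNA-cFos_E1 against 38.9 in shRNA-cFos_E0, and 2912 in shRNA-Ctrl_E1 against 42.6 in shRNA-Ctrl_E0. Fos was at rank 6 at E1, at 474 per kilobase with shRNA-cFos and 1008 with shRNA-Ctrl, and at rank 5 at E0, at 80.8 with shRNA-cFos and 84.6 with shRNA-Ctrl. Fosl1 was lowest throughout, at 1.71 against 1.52 with shRNA-cFos and 4.42 against 2.08 with shRNA-Ctrl in the solution with less shrinkage. At such low counts the other solution, which sets Fosl1 at E1 and E0 farther apart, may hold, so these Fosl1 levels are uncertain. The levels are estimates for a group and have no error of their own, so neighbours in the order, such as Junb (2948) and Jun (2533) in shRNA-cFos_E1 or Jun (4374) and Junb (4331) in shRNA-Ctrl_E1, could not be tested against each other.

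**Figure D2:**
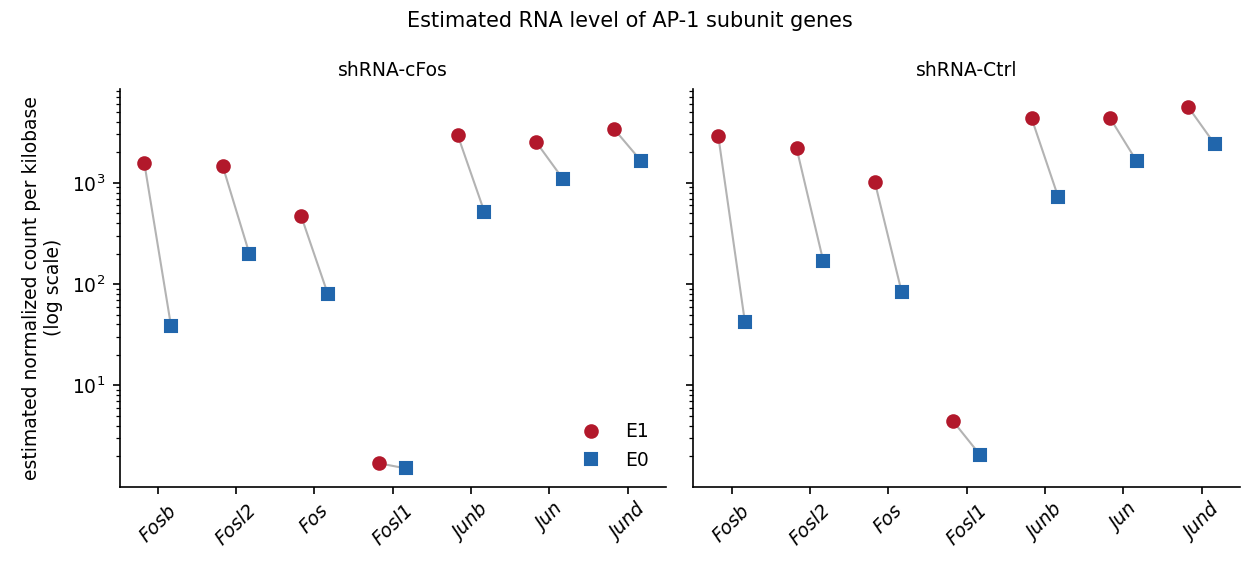
Estimated normalized count per kilobase of transcript on a log axis for each AP-1 subunit gene at E1 (red circles) and at E0 (blue squares), with shRNA-cFos on the left and shRNA-Ctrl on the right; each point is an estimate for 3 libraries, computed from the authors' deposited tables, with no error bar. Fosb has the longest line, with 1557 at E1 against 38.9 at E0 with shRNA-cFos, and Jund is highest in every group. The Fosl1 points use the solution with less shrinkage, and the distance between them is uncertain.

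The summed level of the family per kilobase was 12340 in shRNA-cFos_E1 against 3588 in shRNA-cFos_E0, and 20410 in shRNA-Ctrl_E1 against 5059 in shRNA-Ctrl_E0. The Fos-class genes made up 28.3% of that sum in shRNA-cFos_E1 against 8.97% in shRNA-cFos_E0, and 29.96% in shRNA-Ctrl_E1 against 5.91% in shRNA-Ctrl_E0. Most of the Fos-class share at E1 belonged to Fosb and Fosl2, at 12.6% and 11.9% of the family with shRNA-cFos and 14.3% and 10.7% with shRNA-Ctrl, and Fos itself made up 3.84% with shRNA-cFos and 4.94% with shRNA-Ctrl. Jund gave 27.2% in shRNA-cFos_E1 against 45.9% in shRNA-cFos_E0, and 27.4% in shRNA-Ctrl_E1 against 47.3% in shRNA-Ctrl_E0. Without division by length the order was another: Fosl2 had the highest level of the 7 at E1 and Jun at E0 with either hairpin, and Jund stood at rank 4 at E1 and rank 2 at E0. The shares, whose settings were chosen after the data had been seen, describe RNA and not protein; without division by length the Fos-class share was 46.4% against 18.5% with shRNA-cFos and 46.9% against 12.1% with shRNA-Ctrl, E1 against E0.

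**Figure D3:**
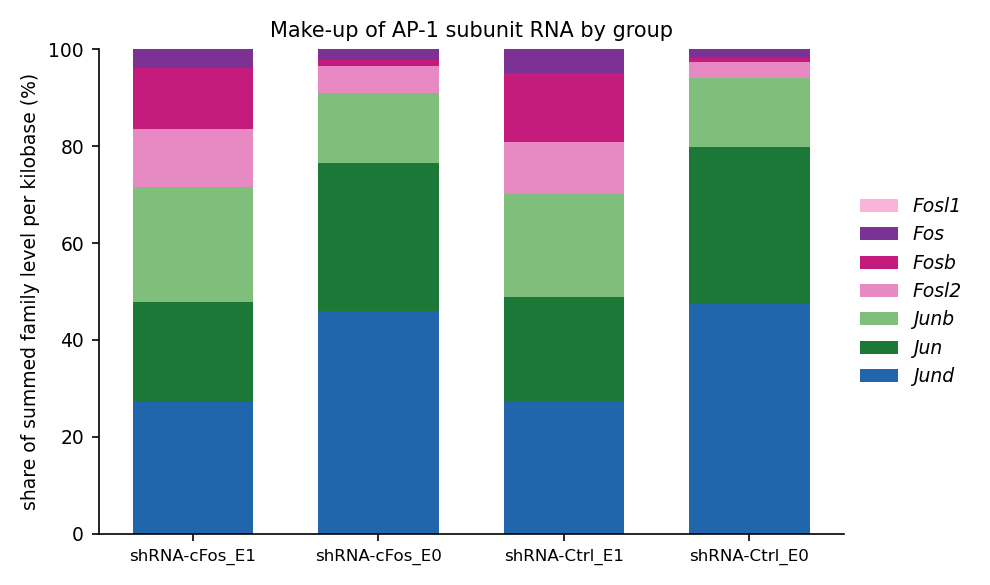
Share of each gene in the summed level per kilobase of the 7 AP-1 subunit genes, in percent, as stacked bars for the 4 hairpin groups, computed from the authors' deposited tables without error bars. The Fos-class segments (purple and pink) reach 28.3% in shRNA-cFos_E1 against 8.97% in shRNA-cFos_E0, and 29.96% in shRNA-Ctrl_E1 against 5.91% in shRNA-Ctrl_E0; Fosl1 is too low to see.

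The E1 response of each member was then compared between the hairpins by the difference of its log2 fold changes, shRNA-cFos minus shRNA-Ctrl, divided by the standard error that the errors of both tables give together. The 2-sided p of this ratio under a normal distribution was adjusted by the method of Benjamini and Hochberg over 14386 genes. The tested Fos-class members had smaller E1 responses with shRNA-cFos. From the authors' deposited tables the computed difference was -1.03 ± 0.20 for Fos (SE, adjusted p = 1.11e-05), -0.79 ± 0.12 for Fosl2 (adjusted p = 1.28e-09) and -0.74 ± 0.16 for Fosb (adjusted p = 9.31e-05). As ratios of the E1 folds, shRNA-Ctrl over shRNA-cFos, these are 2.04 for Fos, 1.73 for Fosl2 and 1.67 for Fosb. None of the 3 Jun-class members passed: the difference was -0.22 for Jun (95% interval -0.41 to -0.03, adjusted p = 0.0859), -0.19 for Jund (-0.41 to 0.03, adjusted p = 0.224) and -0.10 for Junb (-0.43 to 0.22, adjusted p = 0.711). In all, 3 of 6 tested members had a lower and 0 a higher response with shRNA-cFos, against 11.0% of all genes lower and 12.9% higher. The median difference was -0.48 in the members and 0.01 over all genes. The count and the members' median include Fos, the gene targeted by the hairpin, whose lower response is no separate result about the family. The other members that passed were Fosb and Fosl2. Whether the Fos class differed from the Jun class was not tested.

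**Figure D4:**
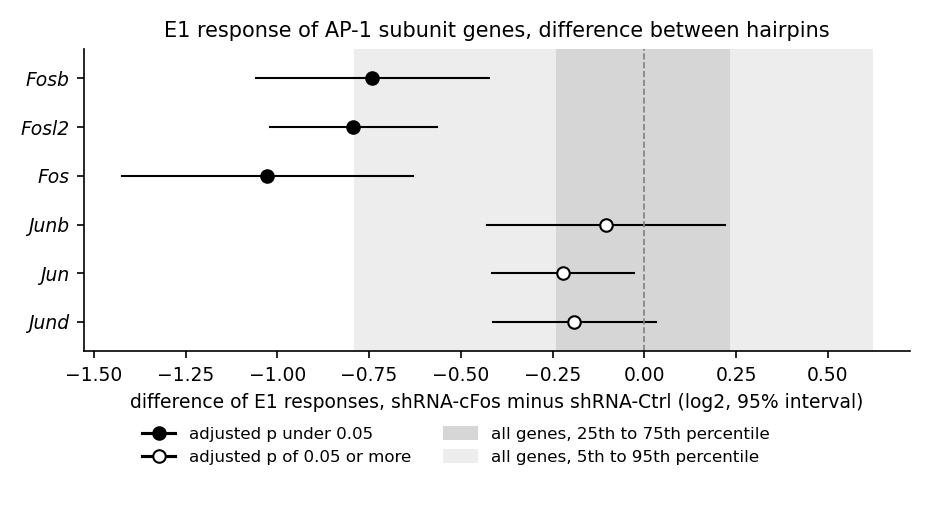
Difference of the E1 responses, shRNA-cFos minus shRNA-Ctrl, in log2 units for the 6 AP-1 subunit genes tested in both hairpin tables (points, with 95% intervals as lines), computed from the authors' deposited tables of 3 libraries per group. Fosb (-0.74), Fosl2 (-0.79) and Fos (-1.03) passed the test (filled), and the dark and light bands hold the 25th to 75th (-0.24 to 0.23) and 5th to 95th percentiles (-0.79 to 0.62) of all genes.

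The levels at E0 and at E1 were also set side by side between the hairpins. Relative to the median gene, the log2 ratio of computed levels, shRNA-cFos over shRNA-Ctrl, was -0.15 at E1 and 0.67 at E0 for Fosl2, and -0.47 at E1 and 0.30 at E0 for Fosb. For the Jun class the ratios were -0.36 at E1 and -0.14 at E0 for Jun, -0.12 and -0.05 for Junb, and -0.30 and -0.11 for Jund. Without scaling by the median gene every one of these ratios at E1 is negative (-1.09 for Fos, -0.90 for Fosb, -0.58 for Fosl2, -0.79 for Jun, -0.56 for Junb and -0.73 for Jund), and at E0 Fosl2 alone is positive (0.24), with -0.06 for Fos and -0.13 for Fosb.

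Markers of other cells and of interferon signalling moved with the same contrast. Of 12 dentate granule neuron markers, 7 were called higher and 0 lower at E1 with shRNA-cFos in the authors' deposited table, and 1 higher and 8 lower with shRNA-Ctrl; their summed computed level was 22116 in shRNA-cFos_E1 against 17511 in shRNA-cFos_E0, and 28208 in shRNA-Ctrl_E1 against 36281 in shRNA-Ctrl_E0. Of 12 microglial markers, 1 was higher and 7 lower with shRNA-cFos (summed level 9296 at E1 against 11940 at E0), and 9 higher and 0 lower with shRNA-Ctrl (17030 at E1 against 12642 at E0). All 14 interferon response genes had a lower E1 response with shRNA-cFos than with shRNA-Ctrl, with summed levels of 2819 against 5783 for shRNA-cFos and 7815 against 2990 for shRNA-Ctrl, E1 against E0. Astrocyte markers split (5 higher and 3 lower of 11 with shRNA-cFos, 3 higher and 0 lower with shRNA-Ctrl), oligodendrocyte markers gave 0 higher and 3 lower of 10 with shRNA-cFos and 1 higher and 0 lower with shRNA-Ctrl, and endothelial and mural markers 1 higher and 2 lower of 10 with shRNA-cFos and 3 higher and 0 lower with shRNA-Ctrl. Among all genes tested, 16.3% were called higher and 11.7% lower with shRNA-cFos, and 16.8% higher and 16.2% lower with shRNA-Ctrl. A lower E1 response with shRNA-cFos was called in 11.0% of all genes. No marker was at 0 in any table, those of granule neurons and those of the other cell types alike. The part of these shifts in the hairpin difference of the AP-1 genes was not tested.

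With overexpression of cFos, Fosb and Junb were lower. Fosb RNA in cFos_OE was 0.580 times that in EYFP_OE in the authors' deposited table (log2 -0.79 ± 0.15, SE, adjusted p = 4.59e-06), with computed levels of 96.8 normalized counts in cFos_OE and 185 in EYFP_OE. Junb RNA was 0.566 times the EYFP_OE level in the deposited table (-0.82 ± 0.12, adjusted p = 1.24e-09), with computed levels of 457 in cFos_OE and 859 in EYFP_OE. Among the 15827 genes tested, Junb had the 35th and Fosb the 41st lowest log2 fold change. Both had risen at E1 with either hairpin, so their direction was opposite here.

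Fosl2 was 1.27-fold higher in cFos_OE in the authors' deposited table (log2 0.35 ± 0.11, SE, adjusted p = 0.0195), a call that is lost at an adjusted p of 0.01 or with a minimum of 1.5-fold; its computed levels were 1421 in cFos_OE and 1096 in EYFP_OE. Jun and Jund did not pass the test, at -0.08 (95% interval -0.32 to 0.15, adjusted p = 0.796) and -0.15 (-0.32 to 0.03, adjusted p = 0.341) in the deposited table. Jun had computed levels of 4027 in cFos_OE and 4297 in EYFP_OE, and Jund 2588 in cFos_OE and 2881 in EYFP_OE. Fosl1 had a mean normalized count of 1.77 and no adjusted p in the deposited table (log2 0.08 ± 0.11). Including Fos, which the labels target, 2 of 6 tested members were higher and 2 lower, where 7.10% of all genes were higher and 5.86% lower. The members' median was -0.12 and that of all genes -0.01. Since the direction was taken from Fos, its place among the higher members was fixed beforehand, and Fosl2 was the other. In the deposited table, too, 7 of 12 microglial and 5 of 14 interferon genes were higher and 0 lower, and 4 of 11 astrocyte markers were higher and 1 lower. Of the granule neuron markers, 2 of 12 were higher and 4 lower, and 4 of 10 endothelial and mural markers were lower. Of 10 oligodendrocyte markers 0 were called, but all 10 had negative log2 fold changes, with a median of -0.30. The part of these marker shifts in the AP-1 values was not tested.

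Some of the dimer partners of AP-1, other basic leucine zipper proteins that pair with Fos or Jun, also rose at E1. Of the 13 listed, 4 of 10 tested rose with shRNA-cFos and 8 of 12 with shRNA-Ctrl in the authors' deposited DESeq2 tables, and none tested fell; at an unadjusted p under 0.05, 1 of the 13 was lower with shRNA-cFos and 0 with shRNA-Ctrl. The shares over all genes were 16.3% higher and 11.7% lower with shRNA-cFos, and 16.8% higher and 16.2% lower with shRNA-Ctrl. The median log2 fold change of the partners was 0.12 with shRNA-cFos and 0.70 with shRNA-Ctrl. Atf3, a stress-induced factor that pairs with Jun proteins, rose by 2.17 ± 0.22 with shRNA-cFos and by 5.0 ± 0.21 with shRNA-Ctrl on the log2 scale (SE, adjusted p = 1.54e-20 and 3.60e-118 in the deposited tables). The difference of its E1 responses was -2.83 ± 0.31 (adjusted p = 9.21e-17), larger in size than that of any AP-1 subunit. Jdp2, a Jun-dimerizing repressor, rose by 1.41 ± 0.11 with shRNA-cFos and 1.55 ± 0.10 with shRNA-Ctrl (adjusted p = 5.23e-34 and 4.35e-53 in the deposited tables), with a difference of -0.14 (95% interval -0.43 to 0.15, adjusted p = 0.550).

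Atf4, the effector of the integrated stress response, had a log2 fold change of 0.11 ± 0.08 at E1 with shRNA-cFos (SE, adjusted p = 0.329, not called) and rose by 1.06 ± 0.07 with shRNA-Ctrl (adjusted p = 2.38e-57) in the authors' deposited tables, a difference of -0.95 ± 0.10 (adjusted p = 9.21e-17). The small Maf genes Maff and Mafk, whose products lack an activation domain, rose with both hairpins in the deposited tables, Maff by 1.67 ± 0.20 with shRNA-cFos and 0.93 ± 0.20 with shRNA-Ctrl, and Mafk by 0.66 ± 0.15 and 0.92 ± 0.14. Maff was the partner with a larger E1 response with shRNA-cFos (difference 0.74 ± 0.29, adjusted p = 0.0439); 4 of the 10 partners tested had a smaller one, among them Atf3, Atf4 and, named after its value was seen, Mafg (-0.51 ± 0.13). With overexpression, 2 of 12 tested partners were higher in the deposited table, Atf3 (1.52 ± 0.19, adjusted p = 9.46e-14) and, named after its value was seen, Batf3 (1.14 ± 0.20, adjusted p = 9.08e-07), and none was lower. Among all genes, 7.10% were higher and 5.86% lower with overexpression. A larger E1 response with shRNA-cFos was called in 12.9% of all genes and a smaller one in 11.0%.

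**Figure D5:**
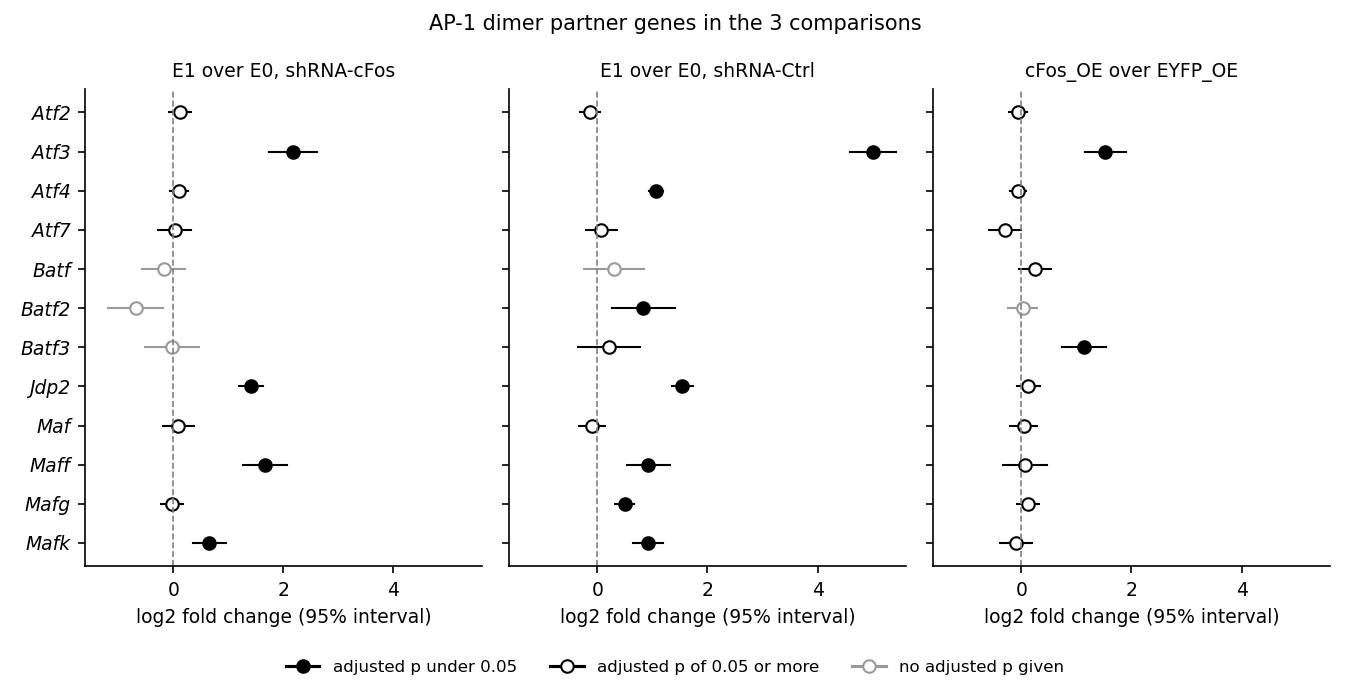
Log2 fold change (points) with 95% interval (lines) of 12 of the 13 AP-1 dimer partner genes in the authors' deposited tables, for E1 over E0 with shRNA-cFos, E1 over E0 with shRNA-Ctrl, and cFos_OE over EYFP_OE, from 3 libraries per group. Atf3 is farthest right in each panel (2.17, 5.0 and 1.52).

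Upstream of the family, 20 genes of the kinases and factors that drive Fos and Jun transcription were all tested. At E1, 10 were higher and 0 lower with shRNA-cFos, and 3 higher and 7 lower with shRNA-Ctrl, in the authors' deposited tables (median log2 0.21 and -0.13). All genes tested had shares of 16.3% higher and 11.7% lower with shRNA-cFos, and 16.8% higher and 16.2% lower with shRNA-Ctrl. Srf, which binds the serum response element of Fos, rose by 1.44 ± 0.09 with shRNA-cFos and 0.97 ± 0.11 with shRNA-Ctrl (SE, adjusted p = 2.68e-51 and 4.35e-18 in the deposited tables). Crem, which encodes activators and repressors of CRE sites, rose by 0.54 ± 0.14 and 0.88 ± 0.13, again with shRNA-cFos and with shRNA-Ctrl. Elk1, the ternary complex factor that joins Srf, had 0.08 ± 0.10 with shRNA-cFos (adjusted p = 0.594, not called) and fell by 0.91 on the log2 scale with shRNA-Ctrl (adjusted p = 4.81e-20) in the deposited tables.

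The difference of E1 responses passed the test in 12 of the 20 upstream genes, all of them higher with shRNA-cFos, with a median of 0.35. Beside Elk1 (0.99 ± 0.14, adjusted p = 1.87e-10) these included Mapk3, the kinase ERK1, at 0.76 ± 0.14 (adjusted p = 9.75e-07), Crtc1, a CREB coactivator, at 0.65 ± 0.10 (adjusted p = 1.14e-08) and Srf at 0.47 ± 0.14 (adjusted p = 0.00729), computed from the authors' deposited tables. The granule neuron markers moved the same way, with 11 of 12 higher, and the part of that shift was not tested. For this difference, 12.9% of all genes were higher and 11.0% lower with shRNA-cFos. With overexpression 2 upstream genes were higher and 2 lower of 20 in the deposited table, against 7.10% and 5.86% of all genes. Srf did not pass with overexpression (-0.25 ± 0.09, adjusted p = 0.0504).

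Of 7 genes for protein regulators of AP-1, 2 were higher and 1 lower at E1 with shRNA-cFos, 1 higher and 2 lower with shRNA-Ctrl, and 0 changed with overexpression in the authors' deposited DESeq2 tables, also at an unadjusted p under 0.05. Shares over all genes were 16.3% higher and 11.7% lower with shRNA-cFos and 16.8% and 16.2% with shRNA-Ctrl. With overexpression they were 7.10% and 5.86%, so counts out of 7 genes say little. Fbxw7, the ubiquitin ligase subunit that recognizes phosphorylated c-Jun, rose by 0.86 ± 0.10 with shRNA-cFos and 0.70 ± 0.10 with shRNA-Ctrl (SE, adjusted p = 1.16e-15 and 9.15e-11 in the deposited tables). Det1, an adaptor of another ligase of c-Jun, fell by 0.66 with shRNA-cFos and 0.60 with shRNA-Ctrl on the log2 scale (adjusted p = 0.00750 and 0.00227 in the deposited tables). Men1, whose product menin binds JunD, had a log2 fold change of 0.24 ± 0.09 with shRNA-cFos and -0.27 ± 0.08 with shRNA-Ctrl, both called (adjusted p = 0.0380 and 0.00606 in the deposited tables), and a difference of 0.51 ± 0.13 (adjusted p = 0.000600). Itch, a ligase of the Jun proteins, and Cops5, a coactivator of c-Jun, passed in none of the 3 deposited tables (log2 fold changes between -0.14 and 0.18).

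Genes in which AP-1 sites have been described were then read. With overexpression, of 17 tested, 8 were higher and 2 lower in cFos_OE than in EYFP_OE in the authors' deposited table, and their median log2 fold change was 0.35. Among all genes tested, 7.10% were higher and 5.86% lower. Penk, the proenkephalin gene, rose by 3.44 ± 0.12 (SE, adjusted p = 5.72e-187). Npy, neuropeptide Y, rose by 1.18 ± 0.11 (adjusted p = 4.72e-23) in the deposited table. Hmox1, heme oxygenase, rose by 0.62 ± 0.16 (adjusted p = 0.00176), and Gja1, the astrocyte gap junction gene that is also in the astrocyte list, did not pass (-0.08 ± 0.07, adjusted p = 0.642).

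At E1, of 16 genes of this list tested, 5 were higher and 4 lower with shRNA-cFos, and 5 higher and 1 lower with shRNA-Ctrl, in the authors' deposited tables. For all genes these shares were 16.3% higher and 11.7% lower with shRNA-cFos, and 16.8% higher and 16.2% lower with shRNA-Ctrl. The difference between the hairpins passed the test in 10 of the 16, with 4 higher and 6 lower with shRNA-cFos. It was higher in 12.9% and lower in 11.0% of all genes. Penk rose by 0.46 ± 0.14 with shRNA-cFos and 0.62 ± 0.15 with shRNA-Ctrl (SE, adjusted p = 0.00526 and 0.000212), and the difference of -0.16 did not pass (95% interval -0.55 to 0.24, adjusted p = 0.638). Npy likewise rose by 0.55 ± 0.13 and 0.58 ± 0.14, with a difference of -0.03 (-0.40 to 0.35, adjusted p = 0.940). Hmox1 went in opposite directions in the deposited tables, falling by 0.94 with shRNA-cFos and rising by 0.98 ± 0.18 with shRNA-Ctrl, a difference of -1.93 ± 0.23 (adjusted p = 2.81e-14). Hmox1 is also expressed by microglia, whose markers moved the same way, and the part of that shift was not tested. Gja1 rose with shRNA-cFos (0.57 ± 0.08) and did not pass the test with shRNA-Ctrl (-0.07 ± 0.09), and its difference was 0.64 ± 0.12 (adjusted p = 1.65e-06).

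For each of 5 members the 3 genes outside the family with the most similar log2 fold changes were found by Euclidean distance over the authors' 3 deposited tables, among 12208 genes with a mean normalized count of at least 50 in each. Fosl2, Junb and Jun had close neighbours: Kcnj2, an inward rectifier potassium channel gene, lay 0.25 from Fosl2, Smad7, an inhibitor of TGF-β signalling, lay 0.50 from Junb, and Txndc11 lay 0.03 from Jun. Further neighbours were Sertad1 (0.29) and Gadd45b (0.52) for Fosl2, Rnf217 (0.56) and Btg2 (0.60) for Junb, and Usp36 (0.05) and Ctnnd1 (0.15) for Jun. The distances of Fos and Fosb were larger. That of Fos includes the overexpression comparison, in which reads of the construct could be counted as Fos (3.34, against 1.35 for Pim1). The nearest to Fos were Pim1 (2.09), Rgs4 (2.17) and Atf3 (2.45), and the nearest to Fosb were the activity-regulated genes Nr4a2 (2.22), Egr3 (2.30) and Arc (2.68). The immediate early gene Nr4a2 had 3.81 at E1 with shRNA-cFos, 4.03 with shRNA-Ctrl and -1.07 with overexpression in the deposited tables. These neighbours were picked by these same values, so their likeness to a member is no separate result.

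AU-rich elements in the 3′ UTR are known to speed the decay of Fos RNA. The pentamer ATTTA, the core of such elements and a motif added after the data had been seen, was counted on the sense strand in the last 400 bases of the 3′ UTR of the longest coding transcript, since AU-rich elements act in the RNA. At least 1 copy was found for 6 of 7 members, all but Fosb, and for 53.0% of 15019 genes; Fosl1, Fosl2 and Jund had 1 copy each. At least 2 copies were found for 3 members and 22.8% of genes, and at least 3 copies for 2 members, Fos and Jun, and for 8.88% of genes. A stretch of 30 bases with 2 of the copies is printed for these members, pentamers in capitals, from GRCm38 at chr12:85477100-85477129 on the plus strand for Fos and chr4:95049207-95049236 on the minus strand for Jun.
Fos: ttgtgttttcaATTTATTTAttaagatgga
Jun: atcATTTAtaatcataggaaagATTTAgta
Over the whole 3′ UTR, Fosl2, whose 3′ UTR is the longest of the 7, had 8 copies, and Fos and Jun 4 each. Junb had 2 copies, and Fosl1, Jund and Fosb 1 each, that of Fosb outside the last 400 bases. Jun, Junb and Jund have 1 exon each and the Fos-class genes 4 exons each in GENCODE M21. No source used here states whether the authors counted by strand, so reads of overlapping antisense RNA could be counted in with these genes.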

How the data were processed

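RNA was measured by sequencing in 18 libraries of mouse dentate gyrus, in 6 groups of 3 by title. The submitters' processing notes name TopHat2, DESeq2 and the genome build mm9; how reads were counted, with which annotation and strand, is not given in the sources used here. The authors' 3 deposited tables give, per the file headers, a mean normalized count (a signal), a log2 fold change with its standard error, a Wald score, and a p-value with its adjusted p-value for 24015 rows. They hold 0 columns of values per library. The median standard error of tested genes was 0.11 to 0.12.

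Calls use the authors' adjusted p under 0.05 as deposited. The log2 fold changes carry a zero-centred normal prior, seen in standard errors capped at 0.29 with shRNA-Ctrl, 0.26 with shRNA-cFos and 0.20 with overexpression. It was removed algebraically, by the solution with less shrinkage, for group levels and as an alternative. The difference between hairpins was tested as described, after a check on simulated data. The simulated effects were mostly smaller than the E1 responses of the called members and were shrunken by the same form of prior. The check therefore does not cover responses as large as theirs or the choice of solution. The sign of overexpression follows Fos; the hairpin tables are E1 over sham. With overexpression, 27 gene names turned into dates were left out. Promoters are RefSeq, GRCm38.p6; transcripts are GENCODE M21; the files' build is mm9, so no coordinate was taken from one to the other.

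The members and lists were chosen with earlier results of these data known. Text names all 7 members, at most 5 genes per pathway list by smallest adjusted p, beside 2 partners named after their values were seen, and 3 nearest genes for 5 members; some genes of these lists are not reported here. Python 3.11.15, numpy 2.4.6, pandas 2.3.3, scipy 1.17.1 and matplotlib 3.10.9 were used.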

Additional observations from a re-analysis of the deposited data

Results flagged for a closer look

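Each value here is a difference of E1 responses between the hairpins, shRNA-cFos minus shRNA-Ctrl, on the log2 scale, computed from the authors' deposited tables and past an adjusted p of 0.05 over all genes tested in both. Among AP-1 subunits these were Fos (-1.03), Fosl2 (-0.79) and Fosb (-0.74). Among dimer partners they were Atf3 (-2.83), Atf4 (-0.95) and Maff (0.74). Upstream, Elk1 (0.99), Mapk3 (0.76), Crtc1 (0.65) and Srf (0.47) had larger responses with shRNA-cFos, as had the regulator gene Men1 (0.51). Of the genes with described AP-1 sites, 4 of 16 had a larger and 6 a smaller response with shRNA-cFos, among them Gja1 (0.64) and Hmox1 (-1.93). Among all genes, 12.9% had a larger and 11.0% a smaller response. Granule neuron, microglial and interferon response genes differed in the same contrast, and their part in these values was not tested.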

How the results depend on the processing

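Of 87 recomputed values for the members, 85 kept their direction and side of the threshold under a stricter adjusted p of 0.01 or a minimum of 1.5-fold, which can only remove calls, adjustment over every gene with a p, or, for the hairpin difference, centring or removal of the prior. In the 3 deposited comparisons removing the prior cannot change a Wald score, so those 21 values are not counted. The other 2 were Fosl2 with overexpression, which kept its log2 fold change of 0.35 and lost its call at the stricter p and at the fold minimum. The stricter p, the fold minimum and the adjustment over every gene keep each log2 value, so they could not turn a direction. Only centring or removal of the prior for the hairpin difference could, and most of the 85 were therefore fixed in direction beforehand. Fosl1 values without an adjusted p were counted as kept. All 13 recomputed counts of called members stayed within 1.5 times the reported count. Scaling the hairpin tables to each other by the median gene turned the E0 ratio of Fos and Fosb, shRNA-cFos over shRNA-Ctrl, from -0.06 to 0.37 and from -0.13 to 0.30. With the prior kept, the Fos-class share was 28.4% against 9.41% with shRNA-cFos and 29.99% against 6.37% with shRNA-Ctrl, E1 against E0, an alternative chosen after seeing the data. No paired analysis was possible because the tables hold no columns per library; leaving out libraries was not run for the same reason.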
